A study of Mus musculus with 25 samples.

Results

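The genes described here are 10 members of the Nrf2 pathway and of glutathione synthesis, measured by RNA sequencing in left ventricular tissue of 25 male mice. They were chosen by name, with earlier results of these data known, and each was the sum of the TPM (a transcript's share of all transcripts in a library, scaled to a fixed total) of all its annotated transcripts, so that 10 of 35969 genes with a listed transcript are covered. GPx4+/- mice, which carry a single working copy of the glutathione peroxidase 4 gene in all cells and were kept by backcross to C57BL6/J, and their WT littermates entered the study at 8 to 10 weeks of age and were fed standard chow (CNTL) or, over 16 weeks, a diet rich in fat and sucrose (HFHS). The 5 groups of 5 mice were GPx4+/- CNTL and GPx4+/- HFHS, the matching WT CNTL and WT HFHS, and WT HFHS + Carnosine, in which 80 mM l-carnosine, a dipeptide that scavenges reactive aldehydes, was added to the drinking water after 7 weeks on the diet. Mice were fasted and given either dextrose or saline before euthanasia, and since the labels do not say which mouse received which, any share of this in the values was not tested.

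Nrf2, encoded by Nfe2l2, is a transcription factor that is held in the cytoplasm and sent to degradation by Keap1. When cysteines of Keap1 are modified by oxidants or reactive aldehydes, Nrf2 accumulates, enters the nucleus and binds antioxidant response elements with small Maf proteins, so that its activity is set mainly at the protein level and is read at the RNA level through its targets. Among these targets are the quinone reductase Nqo1, the heme-degrading oxygenase Hmox1, the sulfiredoxin Srxn1, the cystine importer Slc7a11, the catalytic (Gclc) and modifier (Gclm) subunits of glutamate-cysteine ligase, which sets the rate of glutathione synthesis, and glutathione reductase (Gsr), while glutathione synthetase (Gss) adds glycine in the last step. GPx4 spends glutathione to reduce lipid hydroperoxides, which places these genes upstream of the enzyme that the GPx4+/- genotype lowers.

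The DNA in front of the genes was searched for the core of the antioxidant response element, TGACNNNGC, on both strands (GCNNNGTCA when read from the other strand). RefSeq promoter windows on GRCm38.p6, from 250 bases before to 50 bases after the transcription start, were at hand for 7 of the 10 genes (Nfe2l2, Keap1, Nqo1, Srxn1, Gclm, Gss and Slc7a11), and 3 of these 7 held 1 match each, against 12.4% of all 32851 windows. The 3 matches are shown with their flanks because they are the places where these letters occur, with the match in capitals, in the direction of the gene.
Nfe2l2 (chr2:75704885-75704913, minus strand): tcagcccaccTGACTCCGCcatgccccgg
Gclm (chr3:122245413-122245441, plus strand): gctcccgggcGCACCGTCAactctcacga
Srxn1 (chr2:152105542-152105570, plus strand): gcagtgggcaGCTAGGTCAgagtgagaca
The match of Nfe2l2 began at position -240 from the start, that of Gclm at position -134 and that of Srxn1 at position 29 of the transcribed part. The 250 bases before the start of Nqo1 and Gclm are printed because these were the only genes of the 10 whose summed level passed the test in any comparison.
Nqo1 (chr8:107403206-107403455, minus strand): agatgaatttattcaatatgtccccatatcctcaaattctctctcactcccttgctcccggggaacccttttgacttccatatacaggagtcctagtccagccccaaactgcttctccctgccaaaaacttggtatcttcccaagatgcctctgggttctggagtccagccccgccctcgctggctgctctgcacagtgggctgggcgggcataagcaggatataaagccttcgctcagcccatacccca
Gclm (chr3:122245307-122245556, plus strand): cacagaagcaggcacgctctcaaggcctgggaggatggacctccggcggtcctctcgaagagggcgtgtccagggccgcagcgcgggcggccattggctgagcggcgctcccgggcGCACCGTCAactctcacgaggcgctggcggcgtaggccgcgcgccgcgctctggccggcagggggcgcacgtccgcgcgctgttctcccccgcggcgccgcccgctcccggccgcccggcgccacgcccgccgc
The Gclm window was 79.7% G and C with 48 CG pairs in 300 bases, and the Nqo1 window was 53.7% G and C with 5 CG pairs. A match is a description of the sequence, and a window without one says only that these letters are not in it.

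Levels are given as scaled TPM, which is TPM after division by a factor per library (0.864 to 1.16) that aligns the libraries over 11879 genes. The heart origin of the samples was clear from Myh6 (7033 to 9831 scaled TPM) and Tnnt2 (6064 to 8393), and Gpx4 itself separated the genotypes without overlap, with 251 to 383 in the 10 GPx4+/- mice and 591 to 778 in the 15 WT mice. Marker genes of atrium or liver set 7 mice apart (a summed level over 500 for atrium or over 50 for liver, limits chosen after the data were seen), namely WT CNTL replicate 3, GPx4+/- CNTL replicates 1 and 2, GPx4+/- HFHS replicates 1, 3 and 4 and WT HFHS + Carnosine replicate 2. Summed over 8 atrial genes of 8 listed (among them Nppa, Myl4, Myl7 and Sln), the level ran in WT mice from 149 to 4837 on CNTL, from 52.0 to 316 on HFHS and from 115 to 660 on HFHS with carnosine, and in GPx4+/- mice from 164 to 7690 on CNTL and from 65.1 to 2851 on HFHS. The lowest value in any mouse was 28.2 for Nppa and 1.16 for Myl4, while Myl7 and Sln were each listed at 0 in at least 1 mouse. Summed over 8 hepatocyte genes of 8 listed (among them Alb, Apoa1, Apoa2 and Ttr), the highest values were 1318 in GPx4+/- CNTL and 110 in GPx4+/- HFHS, against at most 16.9 in the other 3 groups. Calls are also given below without these 7 mice, which leaves 4 WT CNTL, 5 WT HFHS, 4 WT HFHS + Carnosine, 3 GPx4+/- CNTL and 2 GPx4+/- HFHS mice. The sum of 8 cardiomyocyte markers of 8 listed had lower medians on HFHS, with 46816 and 40099 in WT on CNTL and HFHS and 45461 and 41876 in GPx4+/-, and overlapped between the diets. In WT mice the medians for smooth muscle were 216 and 299 and for endocardium and vein 30.8 and 64.4 on CNTL and HFHS, with overlap. The part of these markers in the diet differences below was not tested. In bulk tissue, fewer cells of a type and less RNA per cell cannot be told apart.

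Of the 10 genes, 9 were expressed above the minimum for testing (a mean of 1 scaled TPM over the 25 mice) and Slc7a11 was not. Since TPM is expressed per transcript length, levels can be set side by side. Over all 25 mice Nqo1 was highest with 42.9 ± 6.25 scaled TPM (mean ± SD, n = 25), followed by Nfe2l2 with 27.5 ± 1.56, Keap1 with 23.6 ± 1.43, Gclm with 21.3 ± 4.88, Srxn1 with 12.4 ± 1.54, Hmox1 with 11.9 ± 4.22, Gsr with 9.34 ± 0.977, Gss with 8.80 ± 0.761 and Gclc with 4.81 ± 0.422. The ranges of neighbours in this order overlapped for Nqo1 and Nfe2l2, Nfe2l2 and Keap1, Keap1 and Gclm, Gclm and Srxn1, Srxn1 and Hmox1, Hmox1 and Gsr, and Gsr and Gss, and were apart for Gss (7.47 to 10.7) and Gclc (3.86 to 5.65). Nfe2l2 and Keap1 varied least between mice, with coefficients of variation of 5.66% and 6.03%, and Hmox1 varied most among the 9 tested genes, with 35.4%.

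**Figure D1:**
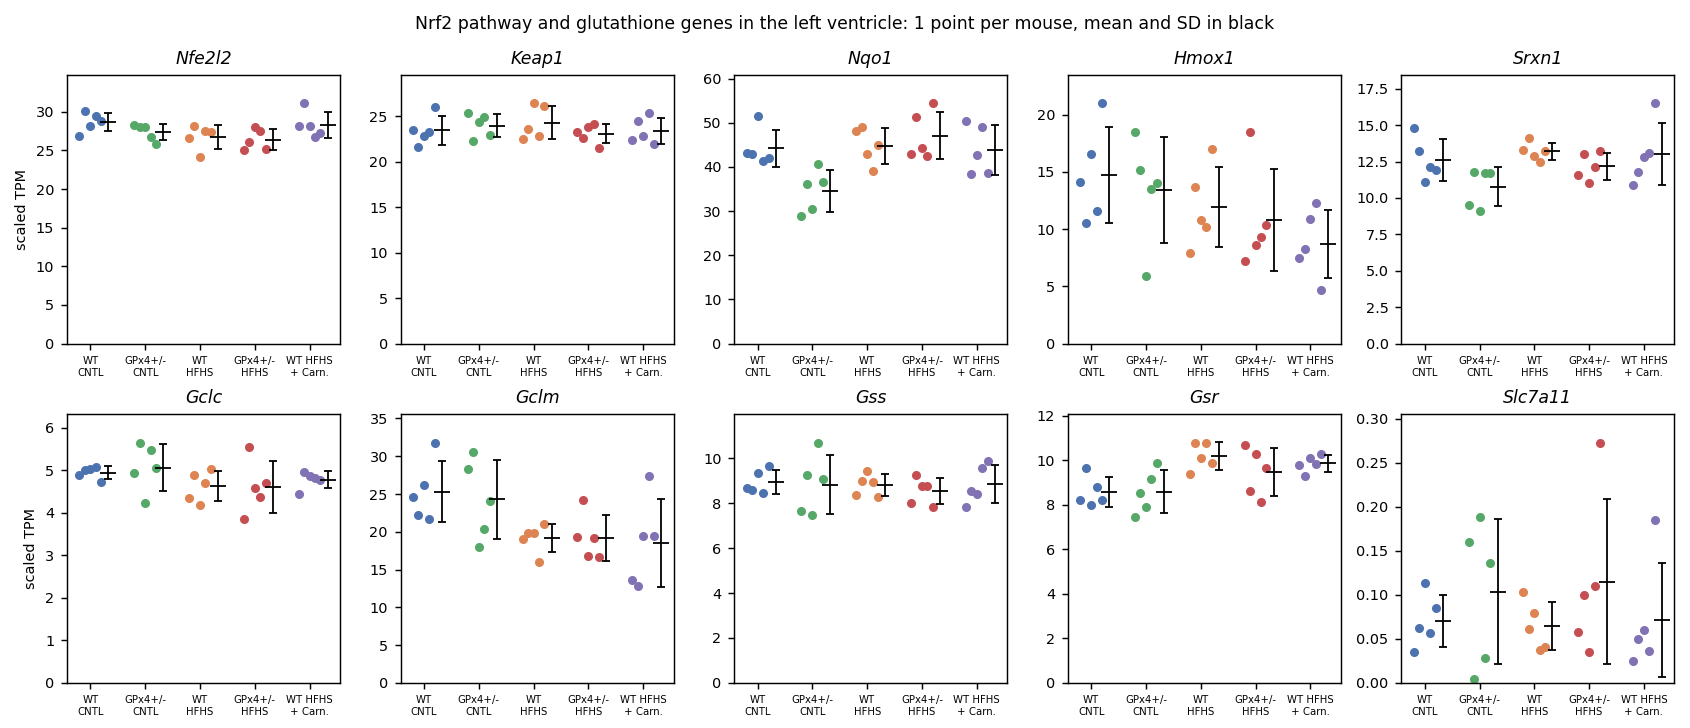
Scaled TPM (y axis, linear from 0) of the 10 genes in the 5 groups, with 1 point for each mouse and the group mean ± SD (n = 5) in black. Nqo1 is lowest in GPx4+/- CNTL (28.9 to 40.6), Gclm is lower in both HFHS groups than in their CNTL groups on average, and Slc7a11 stays below 0.3 scaled TPM.

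Neither of the regulators Nfe2l2 and Keap1 was called in any of the 9 comparisons. Nfe2l2 (ENSMUSG00000015839.6, chr2:75675513-75704641, minus strand, GRCm38) stood in WT mice at 28.7 ± 1.24 scaled TPM on CNTL, 26.8 ± 1.58 on HFHS and 28.3 ± 1.67 on HFHS with carnosine, and in GPx4+/- mice at 27.4 ± 1.05 on CNTL and 26.4 ± 1.35 on HFHS (SD, n = 5 in each). The groups overlapped in every pair, and the difference between HFHS and CNTL over both genotypes was -0.08 ± 0.03 on the log2 scale (SE, adjusted p = 0.174, limma). Keap1 (ENSMUSG00000003308.15, chr9:21229730-21239361, minus strand) lay between 21.5 and 26.4 in all 25 mice, with group means from 23.1 ± 1.04 in GPx4+/- HFHS to 24.3 ± 1.87 in WT HFHS. Most of the Nfe2l2 level (97.9%) came from the protein-coding transcript Nfe2l2-201, whereas Keap1 was spread over Keap1-205 (40.3%), Keap1-201 (33.6%) and Keap1-202 (19.7%), which are all protein coding and differ little in length.

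Nqo1 (ENSMUSG00000003849.8, chr8:107388225-107403206, minus strand) was the gene of the list that moved most clearly, and its lowest group was GPx4+/- CNTL. In GPx4+/- CNTL the 5 mice had 28.9, 36.2, 30.5, 40.6 and 36.7 scaled TPM, and in GPx4+/- HFHS they had 43.0, 51.2, 44.4, 42.4 and 54.4. These groups did not overlap, which was so for 4.47% of all genes tested. On the HFHS diet Nqo1 rose 1.36-fold in GPx4+/- mice (95% interval 1.19 to 1.56, log2 fold change 0.44 ± 0.09 SE), with an adjusted p of 0.0138 from limma over all 11984 genes. It was 1 of 9 tested members called in this comparison, against 3.34% of all genes. Without the 7 mice that stood apart the rise was 0.56 ± 0.11 on the log2 scale with an adjusted p of 0.0439, and on TPM without scaling, where the median of all genes was itself at -0.10, it was 0.34 with an adjusted p of 0.0757.

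In WT mice no difference in Nqo1 between the diets was detected. The WT CNTL mice had 43.2, 42.9, 51.6, 41.3 and 42.0 scaled TPM, and the WT HFHS mice had 48.2, 49.0, 42.9, 38.95 and 45.0, so that the groups overlapped almost fully. The log2 fold change was 0.02 with a 95% interval from -0.18 to 0.22 (adjusted p = 0.94, limma). On standard chow, each GPx4+/- mouse had less Nqo1 than each WT mouse, a separation seen for 0.926% of genes, with a log2 difference of -0.36 ± 0.09 that did not pass the correction over all genes (adjusted p = 0.589, limma; exact permutation p = 0.00794). The same difference on HFHS was 0.07 with a 95% interval from -0.13 to 0.27. Tested directly, the diet effect in GPx4+/- minus that in WT was 0.42 ± 0.13 on the log2 scale (95% interval 0.14 to 0.70, adjusted p = 0.664, limma), so that a different response of the genotypes was not shown over all genes. These comparisons share mice: the GPx4+/- CNTL group enters both the diet effect in GPx4+/- and the genotype difference on CNTL. Among the 7 mice that stood apart, GPx4+/- CNTL replicate 1 had the lowest Nqo1 of its group and WT CNTL replicate 3 the highest of its own, and without the 7 mice the genotype difference on CNTL was -0.24 ± 0.09.

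Over both genotypes together, Nqo1 was 1.17-fold higher on HFHS (95% interval 1.07 to 1.29, log2 fold change 0.23 ± 0.07, adjusted p = 0.0376, limma). This call was near the threshold, and it held in 16 of 31 alternative fits, in which the log2 fold change ranged from 0.18 to 0.32. Without the 7 mice it was 0.32 ± 0.07 with an adjusted p of 0.0212. Nqo1 has a single listed transcript, Nqo1-201, so that no choice between isoforms enters its value. The WT HFHS + Carnosine mice had 50.3, 38.4, 42.6, 49.0 and 38.7 scaled TPM, and overlapped the WT HFHS mice, with a log2 difference of -0.04 (95% interval -0.24 to 0.16).

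Hmox1 (ENSMUSG00000005413.8, chr8:75093621-75100589, plus strand) passed the test in none of the 9 comparisons and was the most variable of the tested members. The WT CNTL mice had 14.1, 10.5, 16.6, 11.6 and 21.0 scaled TPM, the WT HFHS mice 7.94, 13.7, 10.8, 10.2 and 17.0, and the WT HFHS + Carnosine mice 7.48, 8.31, 10.9, 12.3 and 4.71. The means were ordered WT CNTL, WT HFHS and WT HFHS + Carnosine, but every pair of these groups overlapped. WT HFHS + Carnosine mice differed from WT CNTL mice by -0.75 ± 0.24 on the log2 scale (p = 0.0099, adjusted p = 0.217, limma; exact permutation p = 0.0397, two-sided), and from WT HFHS mice by -0.45 with an interval from -0.99 to 0.09. Beside this stood GPx4+/- CNTL with 5.88 to 18.5 and GPx4+/- HFHS with 7.18 to 18.5, which span nearly the whole range of the gene. The summed level of 10 macrophage markers, a cell type rich in Hmox1, had a correlation of -0.02 with Hmox1 over the 25 mice.

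Srxn1 (ENSMUSG00000032802.8, chr2:152105516-152111376, plus strand) reduces over-oxidised peroxiredoxins. Its level in WT mice was 12.6 ± 1.45 scaled TPM on CNTL, 13.2 ± 0.593 on HFHS and 13.0 ± 2.12 on HFHS with carnosine, and in GPx4+/- mice 10.8 ± 1.32 on CNTL and 12.2 ± 0.922 on HFHS (SD, n = 5 in each). As with Nqo1, GPx4+/- CNTL was the lowest group, at -0.22 ± 0.08 on the log2 scale against WT CNTL, but the groups overlapped and the adjusted p was 0.729 (limma). On protein-coding transcripts alone this difference was -0.12. Over both genotypes the HFHS difference was 0.12 ± 0.06 for the gene (adjusted p = 0.205, limma). Restricted to the protein-coding transcript Srxn1-201, which held 86.3% of the level, it was 0.20 with an adjusted p of 0.0243 in the gene fit on protein-coding transcripts, and 0.20 ± 0.06 with an adjusted p of 0.0607 when transcripts were tested singly. The remainder came from the short non-coding transcripts Srxn1-202, read as 0 in 6 of the 25 mice, and Srxn1-203. Correlations of Srxn1 with the summed markers of single cell types ran from -0.40 (atrium) to 0.60 (endothelial cells) over the 25 mice. The part of these markers in the Srxn1 level was not tested.

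Slc7a11 (ENSMUSG00000027737.10, chr3:49892526-50443614, minus strand), the cystine importer at the entry of glutathione synthesis, was barely present. It lay between 0.0043 and 0.273 scaled TPM in the 25 mice, with group means from 0.0644 ± 0.0274 in WT HFHS to 0.115 ± 0.0936 in GPx4+/- HFHS. All groups overlapped, and the exact permutation p over the 6 pairs of groups ran from 0.302 to 0.976. The transcripts annotated as retained introns, Slc7a11-202 and Slc7a11-204, held more of this trace than the protein-coding Slc7a11-201, which averaged 0.0126 and shares 373 bases at 96.0% identity with Tuba1a read from the opposite strand. TPM carries no read counts, so that no detection limit can be given.

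Gclc (ENSMUSG00000032350.9, chr9:77754535-77794485, plus strand), the catalytic subunit, had in WT mice 4.95 ± 0.148 scaled TPM on CNTL, 4.63 ± 0.361 on HFHS and 4.78 ± 0.198 on HFHS with carnosine, and in GPx4+/- mice 5.06 ± 0.555 on CNTL and 4.61 ± 0.610 on HFHS (SD, n = 5 in each). Its HFHS difference over both genotypes was -0.11 with a 95% interval from -0.23 to 0.01 (adjusted p = 0.268, limma).

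Gclm (ENSMUSG00000028124.15, chr3:122245557-122270732, plus strand), the modifier subunit that raises the activity of Gclc, was lower on HFHS. The WT CNTL mice had 24.6, 22.2, 26.2, 21.7 and 31.8 scaled TPM and the WT HFHS mice 19.1, 19.9, 19.8, 16.0 and 21.0. These groups did not overlap, as for 4.51% of genes. In GPx4+/- mice the values were 28.3, 30.6, 18.0, 20.4 and 24.1 on CNTL and 19.3, 24.2, 16.8, 19.2 and 16.7 on HFHS, and there the groups overlapped. Over both genotypes Gclm fell by 0.35 on the log2 scale (SE 0.10, fold 0.785, 95% interval 0.684 to 0.902), with an adjusted p of 0.0284 from limma. With Nqo1 it made 2 of 9 members called in this comparison, in opposite directions, against 8.33% of all genes. Within each genotype the difference was -0.38 ± 0.14 in WT (adjusted p = 0.162, limma) and -0.31 ± 0.14 in GPx4+/- (adjusted p = 0.216, limma), neither of them past the threshold.

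The call on Gclm held in 22 of 31 alternative fits, in which the log2 fold change ranged from -0.40 to -0.20. Without the 7 mice that stood apart it was -0.20 ± 0.11 with an adjusted p of 0.313, with -0.37 ± 0.13 in WT and -0.04 ± 0.18 in GPx4+/-, where 5 mice remained. The WT HFHS + Carnosine mice had 13.6, 12.8, 19.5, 27.4 and 19.4 scaled TPM, and did not differ from WT HFHS beyond the error (log2 difference -0.09, 95% interval -0.48 to 0.29). Against WT CNTL they differed by -0.48 ± 0.19 (adjusted p = 0.297, limma). Correlations of Gclm with the summed markers of single cell types ran from -0.43 (smooth muscle) to 0.33 (atrium) over the 25 mice. The part of these markers in the Gclm level was not tested.

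**Figure D2:**
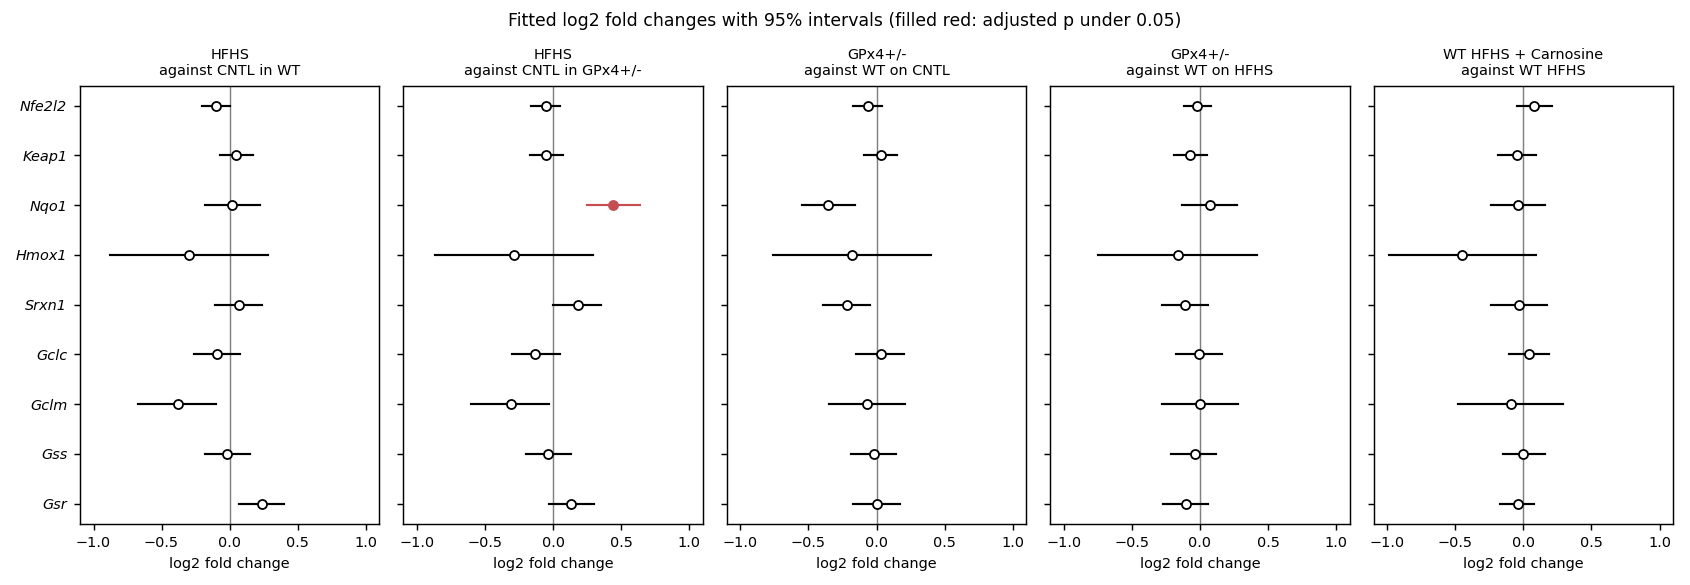
Log2 fold change (x axis) of the 9 tested genes in 5 comparisons, as a point with its 95% interval from limma. The filled red point marks an adjusted p under 0.05, which in these 5 panels was reached by Nqo1 in GPx4+/- mice on HFHS (0.44), and the interval of Gclm on HFHS lies below 0 in both genotypes.

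The Gclm value is a sum over 7 listed transcripts, and most of it did not come from the long one. Gclm-206 (protein coding, 1002 bases) held 59.6% of the level, Gclm-203 (protein coding, 1088 bases) 14.5%, Gclm-205 (retained intron, 495 bases) 14.0% and the long Gclm-201 (protein coding, 5589 bases) 10.2%. Gclm-201 had in WT mice 2.78 ± 0.501 scaled TPM on CNTL, 2.00 ± 0.304 on HFHS and 1.77 ± 0.388 on HFHS with carnosine, and in GPx4+/- mice 2.50 ± 0.237 on CNTL and 1.82 ± 0.665 on HFHS. Tested as single transcripts over 23704 transcripts, a test added after the data were seen, Gclm-201 differed by -0.40 ± 0.11 between HFHS and CNTL over both genotypes (adjusted p = 0.0507, limma), Gclm-206 by -0.28 ± 0.11 (adjusted p = 0.202) and Gclm-203 by -0.25 ± 0.11 (adjusted p = 0.24). All 3 were lower on HFHS on average and none was called. Gclm-205 was the least even, from 0 in 2 mice to 10.4, and the sum over protein-coding transcripts alone gave -0.28 with an adjusted p of 0.0512. A processed pseudogene of Ppia, Gm6061, lies within Gclm on the same strand, and the transcript Gclm-202 shares 287 bases at 97.9% identity with Ppia, a gene at 234 scaled TPM. Gclm-202 held 0.501% of the Gclm level. No other Gclm transcript had such a match of at least 75 bases at 95% identity.

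**Figure D3:**
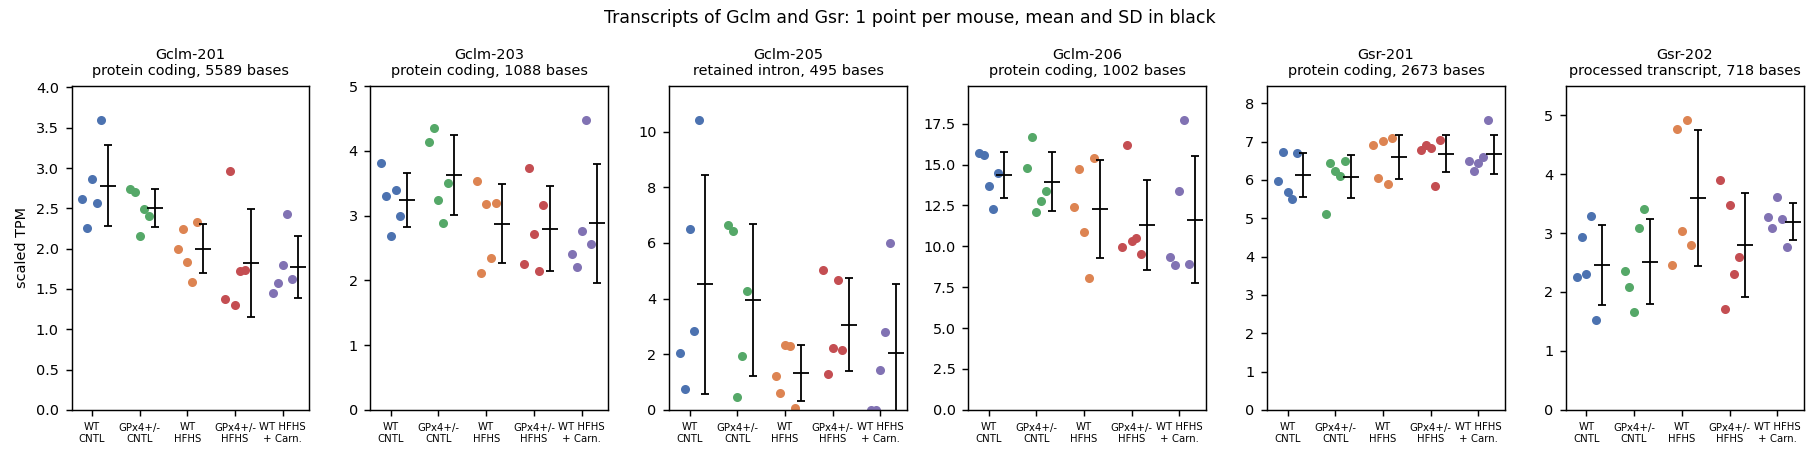
Scaled TPM (y axis, linear from 0, own scale in each panel) of 4 Gclm and 2 Gsr transcripts in the 5 groups, with 1 point per mouse and the group mean ± SD (n = 5) in black. Gclm-201 averages 2.78 in WT CNTL and 2.00 in WT HFHS, while the retained-intron transcript Gclm-205 scatters from 0 to 10.4.

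Summed over all listed transcripts, the modifier subunit had a higher scaled TPM than the catalytic one in every mouse. For single transcripts the order depended on the one chosen. Averaged over all mice, Gclm-206 had 12.7 scaled TPM and the long Gclm-201 had 2.17, against 4.74 for Gclc-201. The split of reads between the Gclm transcripts was not tested. The ratio of Gclm to Gclc was in WT mice 5.14 ± 0.985 on CNTL, 4.15 ± 0.485 on HFHS and 3.88 ± 1.19 on HFHS with carnosine, and in GPx4+/- mice 4.78 ± 0.819 on CNTL and 4.20 ± 0.586 on HFHS (SD, n = 5 in each). With protein-coding transcripts alone it was 4.24 ± 0.476 in WT CNTL and 3.87 ± 0.571 in WT HFHS. The lowest ratio in any mouse was 2.58, in WT HFHS + Carnosine, and the highest 6.75, in WT CNTL.

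Gss (ENSMUSG00000027610.17, chr2:155563181-155592810, minus strand) was not called in any comparison. Its group means lay between 8.53 ± 0.587 scaled TPM in GPx4+/- HFHS and 8.94 ± 0.525 in WT CNTL, less than 1 SD apart. It overlaps Acss2 on the opposite strand, a gene at 20.0 scaled TPM, with up to 165 bases in common, and since the strand setting of the quantification is not given in the sources used here, Gss is uncertain to that extent.

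Gsr (ENSMUSG00000031584.16, chr8:33652523-33698163, plus strand), which returns oxidised glutathione to its reduced form with NADPH, was not called in any comparison, with an adjusted p just above the threshold for HFHS over both genotypes. The WT CNTL mice had 8.24, 9.66, 8.00, 8.79 and 8.23 scaled TPM, and the WT HFHS mice 9.37, 10.8, 10.1, 10.8 and 9.90, so that only WT CNTL replicate 2 and WT HFHS replicate 1 overlapped. The log2 difference was 0.24 ± 0.08 in WT (p = 0.00872, adjusted p = 0.154, limma; exact permutation p = 0.0159), 0.13 ± 0.08 in GPx4+/- (95% interval -0.03 to 0.30, adjusted p = 0.401, limma), where the groups overlapped, and 0.18 ± 0.06 over both genotypes (p = 0.00426, adjusted p = 0.0508, limma). It would be called in 7 of 31 alternative fits. The WT HFHS + Carnosine mice, at 9.32 to 10.3, overlapped the WT HFHS mice. Of the level, 68.8% came from the protein-coding Gsr-201 and 31.2% from the non-coding Gsr-202, and on protein-coding transcripts alone the difference over both genotypes was 0.11 with an adjusted p of 0.323. Over the 25 mice Gsr had a correlation of -0.68 with the summed atrial markers and of 0.68 with the summed markers of endothelial cells (8 of 8 genes measured, whose group medians were 456 and 493 in WT on CNTL and HFHS and 449 and 486 in GPx4+/-). Without the 7 mice the difference was 0.12 ± 0.06 with an adjusted p of 0.302. The part of these markers in the Gsr level was not tested further.

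Counted over the 9 tested members, calls at an adjusted p under 0.05 came in the HFHS comparisons described above, with 1 of 9 in GPx4+/- (3.34% of all genes) and 2 of 9 over both genotypes (8.33%). The HFHS diet in WT gave 0 of 9 members by limma (1.18% of all genes), with 2 of 9, Gclm and Gsr, at an unadjusted p under 0.05 (16.5% of all genes). In GPx4+/- the unadjusted count was 3 of 9, Nqo1, Srxn1 and Gclm (18.3%), and over both genotypes it was 4 of 9, Nfe2l2, Nqo1, Gclm and Gsr (24.5%). Comparing GPx4+/- with WT gave 0 of 9 members by limma on CNTL (0.0501% of all genes), 0 on HFHS (0.0501%) and 0 over both diets (0.0584%). The corresponding unadjusted counts were 2 (Nqo1 and Srxn1, against 6.28%), 0 (4.57%) and 2 (Nqo1 and Srxn1, 3.9%). The difference between the diet effects of the genotypes gave 0 members (0% of all genes by limma), with 1, Nqo1, at an unadjusted p under 0.05 (7.14%). WT HFHS + Carnosine against WT HFHS gave 0 members at either threshold (0% of all genes adjusted and 4.21% unadjusted). WT HFHS + Carnosine against WT CNTL gave 0 adjusted (0.234%) and 3 unadjusted, Hmox1, Gclm and Gsr (13.1%). The median log2 fold change of the 9 members was -0.03 for HFHS over both genotypes, and for all genes it was within 0.00453 of 0 in each comparison.

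Neighbouring genes of the pathway were counted on the HFHS diet over both genotypes, where 8.33% of all genes were called, 561 of them higher and 437 lower. Of 20 further regulators of Nrf2, 19 were tested and 2 rose, with a median log2 fold change of 0.02. These were Nfe2l1, a related transcription factor (0.22 ± 0.04, adjusted p = 0.00224, limma), and the kinase Fyn (0.17 ± 0.05, adjusted p = 0.047). Nfe2l1 stood at 263 ± 18.9 scaled TPM in WT CNTL and 296 ± 23.5 in WT HFHS, well above Nfe2l2. Nfe2l1 was called without the 7 mice too (0.22 ± 0.06, adjusted p = 0.0471), and Fyn was not (0.14 ± 0.06, adjusted p = 0.239). Of 50 further Nrf2 target genes, 42 were tested, 4 rose and 0 fell, with a median of 0.09. The list was chosen with earlier results of these data known. Of the 42, 34 had a log2 fold change above 0, and the share of all genes above 0 was not counted. The median of all genes was within 0.00453 of 0. An unadjusted p under 0.05 (limma), which 24.5% of all genes had, was reached by 18 of the 42. The 3 with the smallest p were the aldose reductase Akr1b3 (0.21 ± 0.04, adjusted p = 0.00266), catalase (Cat, 0.27 ± 0.05, adjusted p = 0.00279) and the glutathione transferase Gsta1 (0.83 ± 0.18, adjusted p = 0.00816), which is close in sequence to other alpha-class transferases and is uncertain for that reason. Within GPx4+/- mice 3 targets were called, against 3.34% of all genes, namely Cat (0.28 ± 0.07, adjusted p = 0.0395), Akr1b3 (0.25 ± 0.06, adjusted p = 0.0202) and the fatty acid transporter Cd36 (0.28 ± 0.07, adjusted p = 0.0394). Of these 3, 0 were called without the 7 mice, with Cat at 0.39 ± 0.11 (adjusted p = 0.114), Akr1b3 at 0.12 ± 0.07 (adjusted p = 0.385) and Cd36 at 0.39 ± 0.10 (adjusted p = 0.0811). Over both genotypes and without the 7 mice 5 targets were called, namely Akr1b8, Pir and Gsta2, named after their values were seen, and Cat (0.32 ± 0.07, adjusted p = 0.0215) and Gsta1 (1.01 ± 0.25, adjusted p = 0.0374), of which the last 2 had been called with all mice, while Akr1b3 was not called (0.13 ± 0.04, adjusted p = 0.0977).

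Of the genes that feed or drain the glutathione pool, some were called higher and some lower, as over all genes (8.33% called). Of 19 genes of NADPH supply, all tested, 2 rose on HFHS over both genotypes. Malic enzyme Me1 rose by 0.37 ± 0.05 (adjusted p = 0.000234, limma), from 68.8 ± 3.88 scaled TPM in WT CNTL to 89.5 ± 9.50 in WT HFHS, and the mitochondrial folate enzyme Mthfd2 by 0.87 ± 0.12 (adjusted p = 0.000152), from 1.45 ± 0.226 to 2.97 ± 0.623. A record of Nnt fell (-0.27 ± 0.08, adjusted p = 0.0422), but the annotation holds 2 records of this gene whose reads can be split between them. Me1 (0.35 ± 0.07, adjusted p = 0.0188), Mthfd2 (adjusted p = 0.00103) and the Nnt record (-0.37 ± 0.10, adjusted p = 0.0467) were also called without the 7 mice. Both Me1 and Mthfd2 were also called in WT, in GPx4+/- and in WT HFHS + Carnosine against WT CNTL. After the 7 mice were left out, Mthfd2 was called in WT (adjusted p = 0.0164) and in GPx4+/- (adjusted p = 0.0209), but not for carnosine, where its log2 difference was 1.08 ± 0.18 (adjusted p = 0.0541) against 0.96 with all mice. Me1 was called in none of the 3 (adjusted p = 0.0597, 0.179 and 0.061), with log2 differences of 0.36, 0.34 and 0.35 against 0.37, 0.36 and 0.37 with all mice. Of 17 genes of cystine and cysteine supply, 14 were tested and 0 were called by limma, with 3 at an unadjusted p under 0.05 (24.5% of all genes). Of 37 genes that use or break down glutathione, 31 were tested, 4 rose and 1 fell. The rising ones with the smallest p were Oplah, the 5-oxoprolinase (0.34 ± 0.05, adjusted p = 0.000288), and Chac2, a glutathione-specific cyclotransferase (0.33 ± 0.07, adjusted p = 0.00733). The falling one was Chac1, the other enzyme of that family (-0.44 ± 0.08, adjusted p = 0.0019), with 6.61 ± 0.828 scaled TPM in WT CNTL and 4.38 ± 0.569 in WT HFHS. In this list 2 genes were called higher and 0 lower without the 7 mice. Oplah was called (0.32 ± 0.06, adjusted p = 0.0125), whereas Chac2 (0.37 ± 0.10, adjusted p = 0.0583) and Chac1 (-0.33 ± 0.10, adjusted p = 0.0735) were not.

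Slc7a11 and Chac1 are also known targets of Atf4, a stress-response factor. Of 19 Atf4 targets other than Slc7a11, 17 were tested, and on HFHS over both genotypes 6 rose and 1 fell, against 8.33% of all genes called, with a median log2 fold change of 0.21. Mthfd2 and Chac1 are in the lists above as well, and the 1 that fell was Chac1. Trib3, a pseudokinase, rose by 0.26 ± 0.07 (adjusted p = 0.0303, limma). Neither Trib3 (0.32 ± 0.09, adjusted p = 0.0563) nor Chac1 was called without the 7 mice. The calls were then 2 higher, Mthfd2 and the asparagine synthetase Asns (0.63 ± 0.16, adjusted p = 0.0433), and 1 lower, Shmt2 (-0.18 ± 0.04, adjusted p = 0.0141), the last 2 named after their values were seen. In the genotype comparisons Gpx4 was the only gene of these lists to be called by limma, at -1.08 ± 0.06 over both diets (adjusted p = 1.59e-09, and 1.75e-05 without the 7 mice), and WT HFHS + Carnosine against WT HFHS gave no call among them, with at most 2 genes of any list at an unadjusted p under 0.05.

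From mouse to mouse the correlations among the members were mixed in sign, with 20 of 36 pairs above 0. Over the 25 mice the 36 pairs of tested members had Pearson correlations from -0.49 to 0.70 with a median of 0.06, and after group means were subtracted from -0.37 to 0.63 with a median of 0.18. The points share library and scaling, the values are descriptions, and pairs drawn from all genes were not set beside them. The highest was between Hmox1 and Gclm (0.70, and 0.62 with group means subtracted), followed by Hmox1 and Gclc (0.60 and 0.63). Nqo1 and Hmox1, both standard readouts of Nrf2, had 0.09, and 0.35 with group means subtracted. Gclc and Gclm, which form 1 enzyme, had 0.42 and 0.29, and the level of Nfe2l2 RNA had -0.25 and -0.34 with Nqo1 and -0.07 and -0.33 with Gclm.

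**Figure D4:**
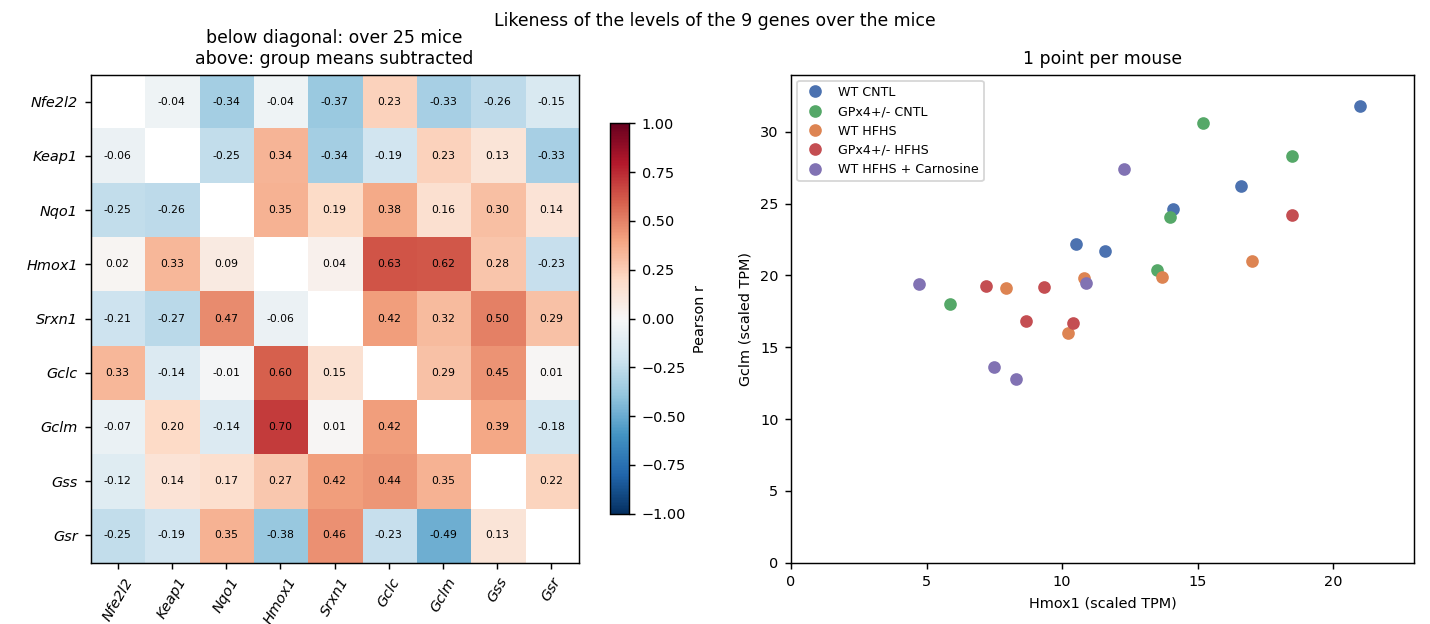
Left, Pearson correlations between the 9 tested genes, with values over the 25 mice below the diagonal and values after subtracting group means above it. Right, Gclm against Hmox1 in scaled TPM with 1 point per mouse, coloured by group, where mice with more Hmox1 tend to have more Gclm (0.70 over 25 mice).

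Among all 11984 genes, the 3 with the highest Pearson correlation to each tested member over the 25 mice included no other member. For Nqo1 they included Nrap (0.781) and Ensa (0.775), and for Hmox1 they were the metallothionein Mt2 (0.79), Syt12 (0.782) and the immunoglobulin gene Ighg2c (0.761). For Gclm they were Dnajb6 (0.79), Entpd4 (0.788) and Mks1 (0.787), for Gclc Prpf38a (0.765), Zc2hc1a (0.717) and Bin3 (0.685), and for Gsr Fam53b (0.836), Man1c1 (0.808) and Alpl (0.785). Srxn1 was closest to Popdc3 (0.812), Abra (0.809) and Dhx32 (0.79), Gss to Slc43a2 (0.686), Arvcf (0.652) and Anapc7 (0.647), Keap1 to Gaa (0.818), Pick1 (0.778) and Pex6 (0.77), and Nfe2l2 to Snrnp40 (0.683), Rpl14 (0.651) and Crnkl1 (0.65). Of these pairs, Nqo1 and Ensa lost most once group means were subtracted, with 0.489 left.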

How the data were processed

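The deposited values are TPM per transcript (119215 transcripts in 25 libraries) and were used as the authors gave them. The submitters' processing notes name kallisto 0.43.1, sleuth 0.30.0 and GRCm38. Libraries were poly(A), stranded and read as pairs. TPM keeps no read depth, so that no counting error can be given. Columns were matched by library name, since the column positions in the labels do not match the header. Transcripts were assigned to GENCODE M21 genes (116772 matched), summed and scaled by median ratios. Gene sums were tested as log2(scaled TPM + 0.5) with limma 3.58.1 (trend, called at an adjusted p under 0.05). Adjustment was by Benjamini-Hochberg over 11984 genes with a mean of at least 1. The test was checked on simulated data with independent noise for each gene, so that the check does not cover variation shared between genes. The 20 mice without carnosine were fitted together, and the carnosine comparisons on their 10 mice. Exact permutation tests (60, unadjusted, two-sided) cannot go below p = 0.00794. Members and gene lists were chosen with earlier results of these data known. Named genes were all members, the 3 called list genes with the smallest p for HFHS over both genotypes and 2 elsewhere, and the 3 genes most like each member, of which 1 is not reported here. P-values set a difference between groups against the spread between mice.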

Additional observations from a re-analysis of the deposited data

Results flagged for a closer look

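In 3 of 50 sets of values (10 genes in the same 5 groups of 5 mice), 1 mouse stood far from the other 4 by Dixon's ratio. Chance alone gives this in about 1 set of 20. Nqo1 was 51.6 scaled TPM in WT CNTL replicate 3, with the others at 41.3 to 43.2, and this mouse was also high in atrial markers. Hmox1 was 18.5 in GPx4+/- HFHS replicate 2, with the others at 7.18 to 10.4. Slc7a11 was 0.185 in WT HFHS + Carnosine replicate 5, with the others at 0.0251 to 0.0606, a level too low to be tested. No interaction of diet and genotype passed the correction over all genes by limma, and 1 gene, 0610009B22Rik, did without WT CNTL replicate 3. Nqo1 was the only member with an unadjusted p under 0.05 (0.00509).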

How the results depend on the processing

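Over 11 alternatives and 25 fits that left out 1 mouse, no called value changed sign, and of 81 member comparisons 3 were called. Values called in neither fit changed sign 45 times over the alternatives and 83 times with 1 mouse left out. The count of members called on HFHS in GPx4+/- was 1, and 0 on TPM without scaling. Over both genotypes the count was 2. It was 0 without the filter on low values and with transcripts tested singly, and 1 on TPM without scaling, with quantile normalization, with the replicate block and, chosen after seeing the data, without the 7 mice high in atrial or liver markers. With 1 mouse left out it ranged from 0 to 3, being 0 without WT CNTL replicate 5, GPx4+/- CNTL replicate 1 or GPx4+/- HFHS replicate 5. The replicate numbers do not pair the mice (median correlation -0.002 for mice of the same number, 5 of 25 closest to their own number), and with the replicate block the adjusted p of Nqo1 over both genotypes was 0.0552. The cause of these changes was not tested. Counts in the 7 other comparisons stayed at 0. Under a minimum of 5 scaled TPM Gclc was no longer tested, and Gsr was called (adjusted p = 0.0445). Over all genes, HFHS in GPx4+/- called 261 higher and 139 lower, and 37 and 387 on TPM without scaling, where the median of all genes was -0.10. Over both genotypes the split was 561 and 437 against 144 and 574, with a median of -0.05. Without the 7 mice the totals went from 400 to 63 and from 998 to 534. With 1 mouse left out, 191 (without GPx4+/- HFHS replicate 5) to 484 were called in GPx4+/-, 36 (without WT CNTL replicate 2) to 202 in WT and 4 (without WT CNTL replicate 4) to 78 for WT HFHS + Carnosine against WT CNTL. In WT 142 were called, 43 without the filter, 38 without scaling, 68 with the block and 405 with array weights. GPx4+/- called 235 without the filter. WT HFHS + Carnosine against WT CNTL called 28, and between 0 (no filter, or the block) and 141 (all 25 mice in 1 fit). GPx4+/- against WT called 6 on HFHS and 7 over both diets, and 3 and 4 on protein-coding transcripts.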
